A study of Homo sapiens with 40 samples.

Results

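The comparison is between MDA-MB-231 cells kept for 48 h in 30 µM zoledronate and mock-treated cells that received only the solvent for the same 48 h. The 8 arrays, 4 treated and 4 control, are all those labelled lot II and 48 h, out of 40 arrays in 10 groups. The other lot II arrays hold cells given 100 µM zoledronate for 24 h and their 24 h controls. Lot I holds 12 h and 24 h arrays of 30 µM zoledronate, of 2 µM fluvastatin and of solvent. MDA-MB-231 is a human breast cancer line without hormone receptors, with mesenchymal features, which forms bone metastases in animal models. It is a single line in culture, per the labels in medium with serum, so the arrays describe the drug's action on the tumour cells without bone or host cells. Replicates are described as independent, and treated and mock-treated cells of a number as measured on 1 day.

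Zoledronate is a bisphosphonate used against bone loss and bone metastases. It blocks farnesyl diphosphate synthase (FDPS), an enzyme of the mevalonate pathway, which makes cholesterol and the farnesyl and geranylgeranyl lipids that anchor Ras, Rab and other small GTPases in membranes. Cells short of sterols switch on the pathway's genes through the factor SREBP. The transcription factors YAP, TAZ and SRF depend on actin tension. In these arrays a gene's level is a log2 signal of its probe set, so 1 unit is a doubling. An effect is treated minus control on that scale, as the mean of the pairs. Its standard error (SE) is limma's, from a spread shared over all arrays of the series, not from the pairs of the comparison alone. For a gene whose pairs spread more here than in the rest of the series, this SE and its p understate that spread. A gene is said to rise or fall where limma's p, adjusted by Benjamini-Hochberg over 18417 genes, was under 0.05.

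The line's mesenchymal markers were bright in the 8 arrays. VIM, the intermediate filament vimentin, averaged 12.21 ± 0.121 (SD, n = 4) in control cells and 12.18 ± 0.285 in treated cells, and CD44, a hyaluronan receptor, 11.05 ± 0.124 and 11.01 ± 0.116. The hormone receptors ESR1 and PGR were dim, at 4.88 and 4.8 in control cells, and so was PTPRC, the leukocyte marker CD45, at 3.35. The mean signal of markers of other cell types, most of them dim, was not uniform between groups. The mean of 11 blood cell markers lay between 5.29 and 5.54 in control and 5.45 and 5.63 in treated arrays. LYZ (lysozyme) was the 1 member that rose (9.09%, against 3.16% of all genes). The mean of 13 fibroblast and endothelial markers lay between 4.86 and 5.03 in control and 5 and 5.15 in treated arrays. PECAM1 was the 1 that rose (7.69%, against 3.16% of all genes). CDH5 and VWF, which define endothelium, averaged 5.17 and 4.99 in control and 5.13 and 5 in treated cells. LYZ did not pass without replicate 1 or 3 (adjusted p = 0.11 and 0.083), nor PECAM1 without replicate 1 (0.23). The part of these markers in the results was not tested. On bulk arrays, fewer cells of a state and less RNA per cell cannot be told apart.

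The treated array of replicate 2 stood apart from the others. Its mean root mean square distance to the other treated arrays, over all genes, was 0.368, against 0.271 to 0.286 for the other 3. Its pair had 785 genes at least 1.5-fold higher and 846 at least 1.5-fold lower in the treated array. The other pairs had 198 to 357 and 187 to 265. Across genes, a description in which genes are not independent replicates, the differences of pair 2 correlated with those of pairs 1, 3 and 4 at r = 0.34, 0.01 and −0.15, while pairs 1 and 3 gave 0.40 and pairs 3 and 4 gave 0.39. The median SD of a gene over the 4 pair differences was 0.192, and 0.155 without replicate 2, against 0.134 to 0.161 in the 5 other comparisons of the series. Calls at 48 h were therefore also made without the pair of replicate 2.

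With all 4 pairs, 582 genes rose (3.16% of those tested) and 815 fell (4.43%), 1397 in all (7.59%). Without replicate 2, 685 rose (3.72%) and 972 fell (5.28%), 9% together. Both fits called 382 rises (2.07%) and 534 falls (2.9%), and none of the genes called in both turned direction. Of the 481 genes called only with all 4 pairs, 200 rose and 281 fell, and 0 of these changed sign when replicate 2 was left out. Both fits share all but the pair of replicate 2, so like signs are in part built in. Effects were small for most genes: 75 rises and 72 falls passed 1.5-fold. All 4 treated arrays lay above all 4 control arrays for 342 of the 582 risen genes, and below them for 503 of the 815 fallen genes. Over all genes these shares were 3.93% and 4.35%. Of the risen genes 502 were higher in 4 of 4 pairs, and of the fallen genes 716 were lower in 4 of 4, against 11.7% and 10.1% of all genes. The calls were made from these same arrays, so such shares follow in part from the selection and are no separate support.

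These counts rest on a spread shared over the series' 40 arrays and on the pairing. Without the replicate block 349 genes passed, 154 rises and 195 falls. With the 8 arrays fitted alone limma called 0, with 2280 genes at an unadjusted p under 0.05. Leaving out replicate 1 cut the count to 485 (204 rises and 281 falls) and leaving out replicate 3 to 911 (421 and 490). Without replicate 4 there were 633 rises and 1039 falls. Whichever replicate was left out, 150 rises and 206 falls were called, 101 and 151 of them also without the block. Counts of list members in these settings, given below, are to be read beside these totals over 18417 genes. When each array was centred on its median, 476 genes rose and 1114 fell, so that rises made up 29.9% of the calls instead of 41.7%; without replicate 2 the shares were 29.7% and 41.3%.

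**Figure D1:**
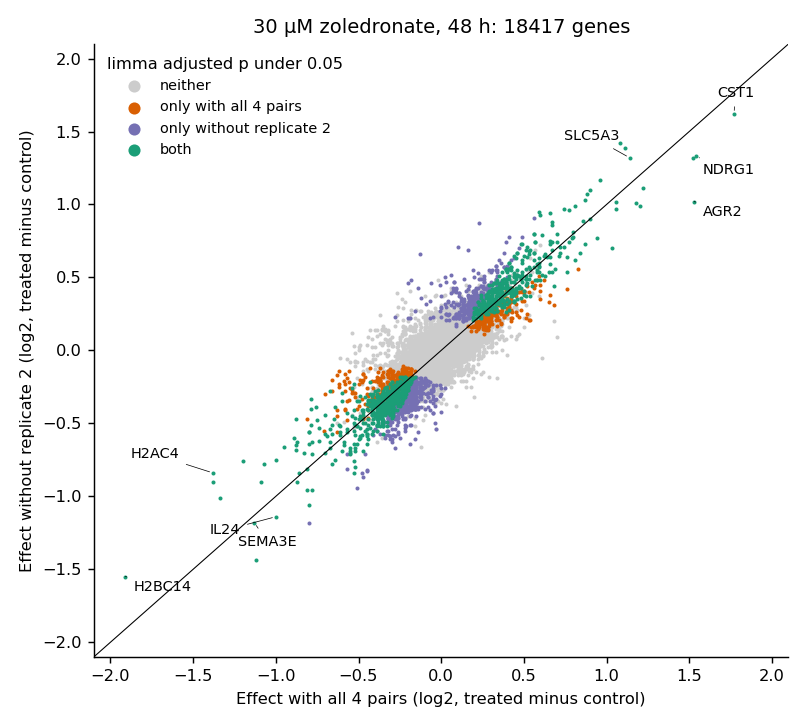
Effect of 30 µM zoledronate at 48 h on each of 18417 genes, with all 4 pairs on the horizontal axis and without replicate 2 on the vertical axis, both as log2 treated minus control. Points are coloured by whether limma's adjusted p was under 0.05 in either fit or both. The line marks equal effects. H2BC14 lies at −1.91 and −1.55, and CST1 at 1.77 and 1.62.

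The lowest values relative to control belonged to genes of replication-dependent histones, the proteins that package new DNA in S phase. Their genes lie in clusters, lack introns and give mRNAs that end in a stem-loop instead of a poly(A) tail. The leading members are shown by the 250 bases before the start of H2BC14 (GRCh38.p14, chr6:27814772-27815021, + strand) and of H2AC15 (chr6:27838376-27838625, − strand), from RefSeq. Both fell at 48 h. Capitals mark CCAAT, the octamer ATTTGCAT known from histone H2B promoters, and TATAAA, on either strand.
H2BC14: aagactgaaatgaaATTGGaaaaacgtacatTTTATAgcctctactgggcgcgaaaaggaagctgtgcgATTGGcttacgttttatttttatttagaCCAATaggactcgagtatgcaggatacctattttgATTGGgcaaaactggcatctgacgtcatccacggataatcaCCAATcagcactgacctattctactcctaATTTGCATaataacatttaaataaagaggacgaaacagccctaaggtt
H2AC15: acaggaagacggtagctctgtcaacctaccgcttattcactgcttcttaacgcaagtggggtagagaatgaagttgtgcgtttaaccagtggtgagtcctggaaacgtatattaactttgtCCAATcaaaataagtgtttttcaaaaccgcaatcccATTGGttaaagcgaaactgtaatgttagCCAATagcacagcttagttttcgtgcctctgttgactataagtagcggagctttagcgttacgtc
The H2BC14 window held ATTTGCAT and the H2AC15 window did not. Of the 57 histone cluster genes measured, 52 matched a RefSeq promoter, with 54 promoters in all. ATTTGCAT stood in 44.4% of these against 1.63% of all 35116 promoters, CCAAT in 85.2% against 32%, and TATAAA in 66.7% against 10.7%. Among members that fell 56.7% of promoters held ATTTGCAT, and among those that did not pass 29.2%. These matches describe the windows and are no test of a factor.

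H2BC14 (gene 8342, chromosome 6, probe set 8117594) had log2 signals of 10.21, 10.67, 10.33 and 10.49 in control replicates 1 to 4. The treated values were 8.64, 7.67, 8.89 and 8.86. All treated arrays lay below all control arrays, and replicate 2 was the lowest. The effect was −1.91 (SE 0.17), a 3.76-fold lower level (limma adjusted p = 1.9e-06), and −1.55 without replicate 2 (adjusted p = 7.9e-07). H2AC15 (probe set 8124524) went from 8.55, 9.18, 8.69 and 8.82 to 7.45, 6.86, 7.76 and 7.82. Its groups did not overlap either, at −1.34 (SE 0.17, adjusted p = 5.8e-05) with all pairs and −1.01 without replicate 2 (adjusted p = 0.00016). H2BC3, H2AC4, H3C12, H2BC9 and H2AC21 were the further histones among the 10 largest falls called in both fits. H2BC3 and H2AC4 both had an effect of −1.38, which became −0.9 and −0.84 without replicate 2.

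Of the 57 histone cluster genes, 34 fell and 0 rose (background 4.43% and 3.16%). Without replicate 2, 25 fell, all among the 34, and 24 were called whichever replicate was left out. The median effect was −0.52 with all pairs and −0.34 without replicate 2, against 0.01 and 0.012 over all genes. The mean over members was −0.40, −1, −0.36 and −0.34 in pairs 1 to 4, so the list was lower in every pair and lowest in pair 2. Falls were found in all classes: 11 of 14 H2A genes, 10 of 16 H2B genes, 5 of 8 H3 genes, 6 of 13 H4 genes and 2 of 6 genes of the linker histone H1. The members that fell had a median signal of 8.32 over the arrays of the series, and the 23 that did not pass had 4.77. H4C14 and H4C15, near-identical copies, gave the same values, and signal shared between other such copies was not tested. Of 8 replacement histones, which are made outside S phase, limma called 0, with 2 at an unadjusted p under 0.05.

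Genes for making histone mRNA moved less. ERI1, an exonuclease that trims the histone stem-loop, fell by 0.38 on the log2 scale (SE 0.068, adjusted p = 0.0014; −0.33 and adjusted p = 0.007 without replicate 2), and its treated arrays, 8.22 to 8.48, lay below the control arrays, 8.69 to 8.74. SLBP, which binds the stem-loop, had control values of 9.46, 9.25, 9.02 and 8.93 and treated values of 9.26, 9.04, 9.14 and 9.29. Its effect was 0.02 (adjusted p = 0.95) and 0.09 without replicate 2; the sign turned without replicate 3 (−0.02), without replicate 4 (−0.1) and with median centring (−0.01). NPAT, the activator of histone transcription in S phase, had an effect of −0.1 (adjusted p = 0.38). In all 3 of 12 such factors fell (25%, background 4.43%), 2 of them also without replicate 2. ZNF473, at −0.27 (adjusted p = 0.038), did not pass without replicate 1, 2 or 3 (adjusted p = 0.13, 0.11 and 0.14). CPSF3, at −0.2 (adjusted p = 0.048), passed without replicate 2 but not without replicate 1, 3 or 4 (0.24, 0.18 and 0.085).

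Genes of cell division fell mainly through replicate 2. Of 35 mitosis and spindle genes, 12 fell (34.3%, background 4.43%) and 0 rose (background 3.16%) with all pairs. Without replicate 2, 4 fell and 2 rose, against a background of 5.28% and 3.72%. The median effect went from −0.45 to −0.07. Mean differences over the list were −0.27, −1.71, −0.02 and 0.14 in pairs 1 to 4. In treated replicate 2 the list's mean signal was 8.13, and in the other 7 arrays it lay between 9.48 and 10.11. Leaving out another replicate gave 7 (replicate 1), 17 (replicate 3) and 25 falls (replicate 4). Over all 18417 genes these fits had 281, 490 and 1039 falls, against 815 with all pairs.

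MKI67, the proliferation marker Ki-67, shows this pattern. Its control values were 10.84, 10.63, 10.21 and 10.27, and its treated values 10.52, 8.6, 10.14 and 10.6. Only treated replicate 2 lay below the range of the others. The effect was −0.52 (SE 0.2, adjusted p = 0.11) with all pairs and −0.02 (adjusted p = 0.94) without replicate 2; without replicate 4 it was −0.8 and passed (adjusted p = 0.015). CDC20, an activator of the anaphase-promoting complex, had −0.49 with all pairs (adjusted p = 0.19), 0.04 without replicate 2 and −0.84 without replicate 4 (adjusted p = 0.015). DLGAP5, a spindle protein, and CDKN3, a phosphatase of CDK kinases, were among the 4 falls that shrank most without replicate 2. DLGAP5 went from −0.62 to −0.14 (adjusted p = 0.041 and 0.3), and CDKN3 from −0.63 to −0.17 (adjusted p = 0.044 and 0.4); both calls ended also without replicate 1 (adjusted p = 0.059 and 0.11) and without the block (0.11 and 0.2).

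HMMR, CCNB1, CENPE and PLK1 fell in both fits and with each replicate left out. HMMR, a hyaluronan-binding protein of the spindle, had control values of 7.38, 7.29, 7.14 and 7.06. Its treated values were 6.64, 5.69, 6.56 and 6.49, all below the controls. The effect was −0.87 (SE 0.14, adjusted p = 0.00051) and −0.63 without replicate 2 (adjusted p = 0.0027). PLK1, a mitotic kinase, had control values of 10.73, 10.52, 10.21 and 10.25 and treated values of 10.16, 8.36, 9.88 and 10.16. Its effect of −0.79 became −0.33 without replicate 2 (adjusted p = 0.0072 and 0.0048). CCNB1, cyclin B1, went from −0.54 to −0.26 (adjusted p = 0.0055 and 0.015). CENPE, a kinetochore motor, went from −0.79 to −0.4 (adjusted p = 0.0071 and 0.047).

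DNA replication and E2F genes pointed in opposite directions in pair 2 and in pairs 3 and 4. Mean differences over the 33 genes were −0.12, −1.04, 0.16 and 0.29. With all pairs 2 fell (6.06%, background 4.43%) and 0 rose. Without replicate 2, 1 fell and 4 rose (background 5.28% and 3.72%), and the median effect turned from −0.16 to 0.11. MCM6, a subunit of the replicative helicase, was the 1 that fell in both fits. Its treated arrays (9.74, 9.78, 9.98 and 9.97) lay below its control arrays (10.28, 10.32, 10.26 and 10.39), with an effect of −0.44 (SE 0.084, adjusted p = 0.0024) and −0.41 without replicate 2 (adjusted p = 0.0098). MCM5 fell by 0.39 (adjusted p = 0.016), but not without replicate 2 (−0.18, adjusted p = 0.13) or replicate 1 (−0.41, adjusted p = 0.063). MCM2 had −0.31 (adjusted p = 0.056), and passed only without replicate 4 (−0.39, adjusted p = 0.032). CDKN1A, the CDK inhibitor p21, had an effect of 0.19 (adjusted p = 0.29), and 0.35 without replicate 2 (adjusted p = 0.028).

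**Figure D2:**
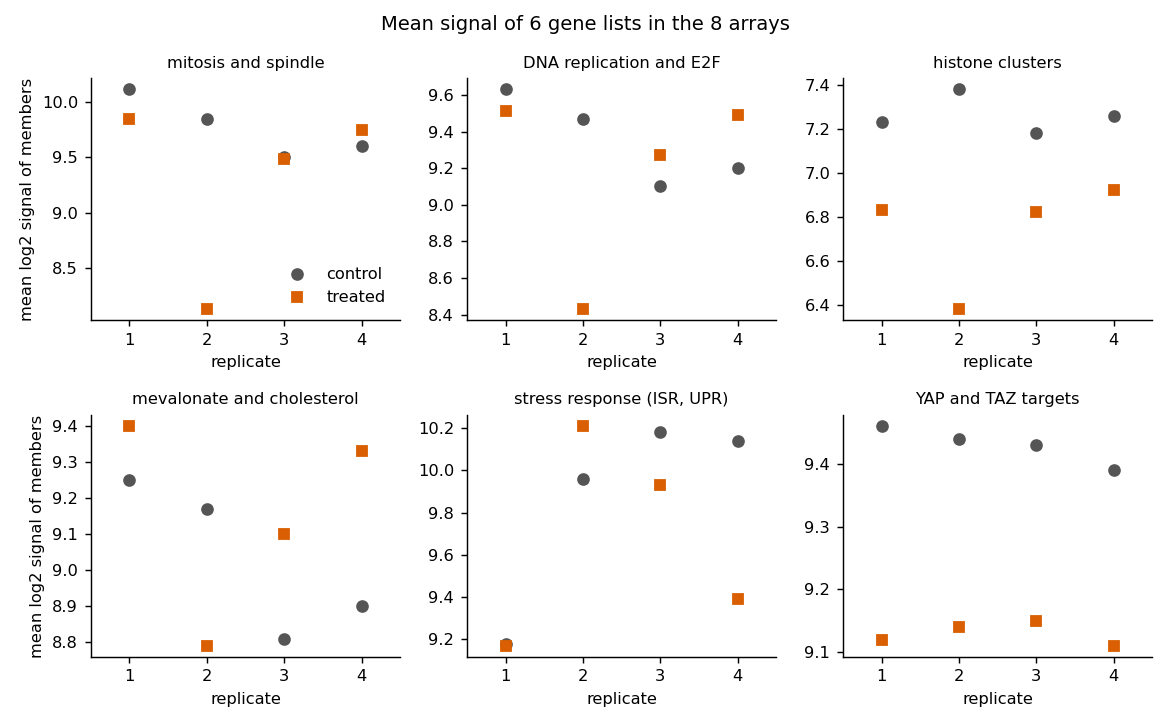
Mean log2 signal of the measured members of 6 gene lists (35, 33, 57, 16, 23 and 26 genes) in each of the 8 arrays, by replicate number; circles are control arrays and squares treated arrays. The mitosis list drops to 8.13 in treated replicate 2, the stress response list is low in control replicate 1 (9.18), and the YAP and TAZ list is lower in the treated array of every replicate.

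In the mevalonate pathway itself, effects were small and pair 2 went the other way. Mean differences over 16 enzymes of mevalonate and cholesterol synthesis were 0.15, −0.38, 0.30 and 0.43 in pairs 1 to 4. With all pairs 2 of the 16 rose (12.5%, background 3.16%) and 0 fell. Without replicate 2, 5 rose (background 3.72%), and the median effect went from 0.12 to 0.27. FDPS, the target of zoledronate, had control values of 9.73, 9.77, 9.52 and 9.59 and treated values of 9.93, 9.22, 9.86 and 10.01. Its effect was 0.1 (SE 0.098, adjusted p = 0.61) with all pairs, 0.32 without replicate 2 (adjusted p = 0.0048), and 0 without replicate 4. HMGCS1, which feeds the pathway by joining acetyl units, had control values of 10.27, 9.8, 8.98 and 9.22 and treated values of 10.67, 9.42, 10.07 and 10.52. It was higher in 3 pairs and lower in pair 2, at 0.6 (SE 0.16, adjusted p = 0.025) and 0.93 without replicate 2 (adjusted p = 0.00025); the call ended without replicate 1, 3 or 4 (adjusted p = 0.062, 0.17 and 0.18) and without the block (0.24). LSS, the cyclase that forms lanosterol, had 0.23 (adjusted p = 0.036) and 0.31 without replicate 2 (0.0067), and likewise did not pass without replicate 1, 3 or 4 (0.12, 0.12 and 0.16) or the block (0.45). GGPS1, which makes the geranylgeranyl lipid, had 0.12 (adjusted p = 0.73) and −0.21 without replicate 2 (0.4).

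ACSS2 and STARD4 rose in both fits. ACSS2 makes acetyl-CoA from acetate and STARD4 carries cholesterol; both are targets of SREBP. ACSS2 had control values of 8.36, 8.63, 8.8 and 8.73 and treated values of 9.18, 9.19, 9.3 and 9.2, without overlap. Its effect was 0.59 (SE 0.091, adjusted p = 0.00048), and 0.6 without replicate 2. STARD4 had 0.41 (adjusted p = 0.0043) and 0.49 without replicate 2 (0.0017), with an adjusted p of 0.14 without the block. In the list of SREBP regulators and lipid genes 3 of 16 rose (18.8%, background 3.16%). Without replicate 2, 7 rose and 1 fell (background 3.72% and 5.28%). Of 14 enzymes of prenylation and polyprenyl synthesis, 2 fell (14.3%, background 4.43%) and 0 rose (background 3.16%). They were COQ2 (−0.29, adjusted p = 0.014) and PDSS1 (−0.3, adjusted p = 0.046), both of ubiquinone synthesis, and neither passed without replicate 2 (adjusted p = 0.1 and 0.25) or the block (0.064 and 0.17), nor PDSS1 without replicate 1 or 3 (0.13 and 0.11).

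Among genes of the proteins that carry the lipid anchor, 2 of 36 Ras, Rap, Ral and Rab genes rose (5.56%, background 3.16%) and 1 fell (2.78%, background 4.43%). RAB31, of endosomal transport, rose by 0.44 (adjusted p = 0.0025), or 0.39 without replicate 2 (0.012). RAP2A had 0.32 (adjusted p = 0.026), and did not pass without replicate 1, 3 or 4 (0.054, 0.1 and 0.18) or the block (0.086). RHEB, the activator of mTORC1, fell by 0.23 (adjusted p = 0.013), but not without replicate 2 (−0.17, adjusted p = 0.067) or the block (0.22).

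Kruppel-like factors include KLF2, a factor that statins raise in endothelial cells. Of 14 members 5 rose (35.7%, background 3.16%) and 0 fell, and the same 5 rose without replicate 2. Without replicate 1, and likewise without the block, 3 rose, of 204 and 154 rises over all genes. The mean of the list was 7.59 in control replicate 1 and 7.84 to 7.94 in the other controls. KLF2 had control values of 8.87, 9.07, 9.03 and 9 and treated values of 9.81, 9.19, 9.87 and 9.8. All treated arrays were above the controls, and replicate 2 was the lowest of them. The effect was 0.67 (SE 0.11, adjusted p = 0.00093), and 0.86 without replicate 2 (9.6e-05). KLF13 and KLF3 had 0.67 and 0.58 (adjusted p = 0.0028 and 0.0035), and 0.54 and 0.48 without replicate 2; a second probe set of KLF13 had 0.12 (adjusted p = 0.68). KLF7 had 0.64 in both, and did not pass without replicate 1 (0.49, adjusted p = 0.071) or without the block (0.063).

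YAP and TAZ, co-activators that need actin tension, have targets that fell in part. Of 26 targets 8 fell (30.8%, background 4.43%) and 0 rose; without replicate 2, 10 fell, 7 of them in both fits, and without the block 3 fell. The list's mean difference was −0.34, −0.30, −0.28 and −0.28 in pairs 1 to 4, nearly the same in each, and its mean signal was 9.39 to 9.46 in the control arrays and 9.11 to 9.15 in the treated arrays. RBMS3, an RNA-binding protein (probe set 8078330), had control values of 8.18, 8.18, 8.48 and 8.39. Its treated values were 7.46, 7.95, 7.32 and 7.4, all lower. The effect was −0.78 (SE 0.12, adjusted p = 0.00039), and −0.96 without replicate 2 (6.3e-05). EDN1, the vasoconstrictor endothelin 1, went from 7.66, 7.15, 6.74 and 6.56 to 6.35, 6.35, 6.13 and 6.06. It fell by 0.81 (SE 0.15, adjusted p = 0.0022), and also without replicate 2 (adjusted p = 0.0064), but had an adjusted p of 0.055 without the block. ASAP1 and CRIM1 fell by 0.5 and 0.44 (adjusted p = 0.0015 and 0.005), and had −0.35 and −0.47 without replicate 2 (0.0094 and 0.0093), ASAP1 with an adjusted p of 0.067 without the block.

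The best known targets of YAP and TAZ did not pass. CCN1 had treated values of 11.16 to 11.52 and control values of 11.81 to 12.03, without overlap, yet its effect of −0.59 (SE 0.24) gave an adjusted p of 0.14. CCN2 had −0.51 (adjusted p = 0.14) and ANKRD1 −0.41 (adjusted p = 0.23); ANKRD1's groups did not overlap either (12.74 to 12.91 and 13.18 to 13.28). Their SE comes from the spread over all comparisons of the series. In the list of actin and SRF genes 2 of 22 fell (9.09%, background 4.43%), CALD1 and LIMA1, both of which bind actin filaments. CALD1 had control values of 7.6, 7.51, 7.37 and 7.22 and treated values of 6.89, 6.39, 6.74 and 6.71, with an effect of −0.74 (SE 0.084, adjusted p = 2.8e-05) and −0.62 without replicate 2. LIMA1 had −0.39 and −0.44 (adjusted p = 0.0022 and 0.002).

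Tubulins followed the pattern of the pathway enzymes. Of 13 tubulins and microtubule regulators 1 rose with all pairs (7.69%, background 3.16%) and 6 without replicate 2 (background 3.72%). Mean differences were 0.03, −0.67, 0.33 and 0.42. TUBA1A, an alpha-tubulin, had 0.56 (adjusted p = 0.023) and 0.8 without replicate 2 (0.0016), and did not pass without replicate 1, 3 or 4 (0.072, 0.15 and 0.13) or the block (0.052).

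**Figure D3:**
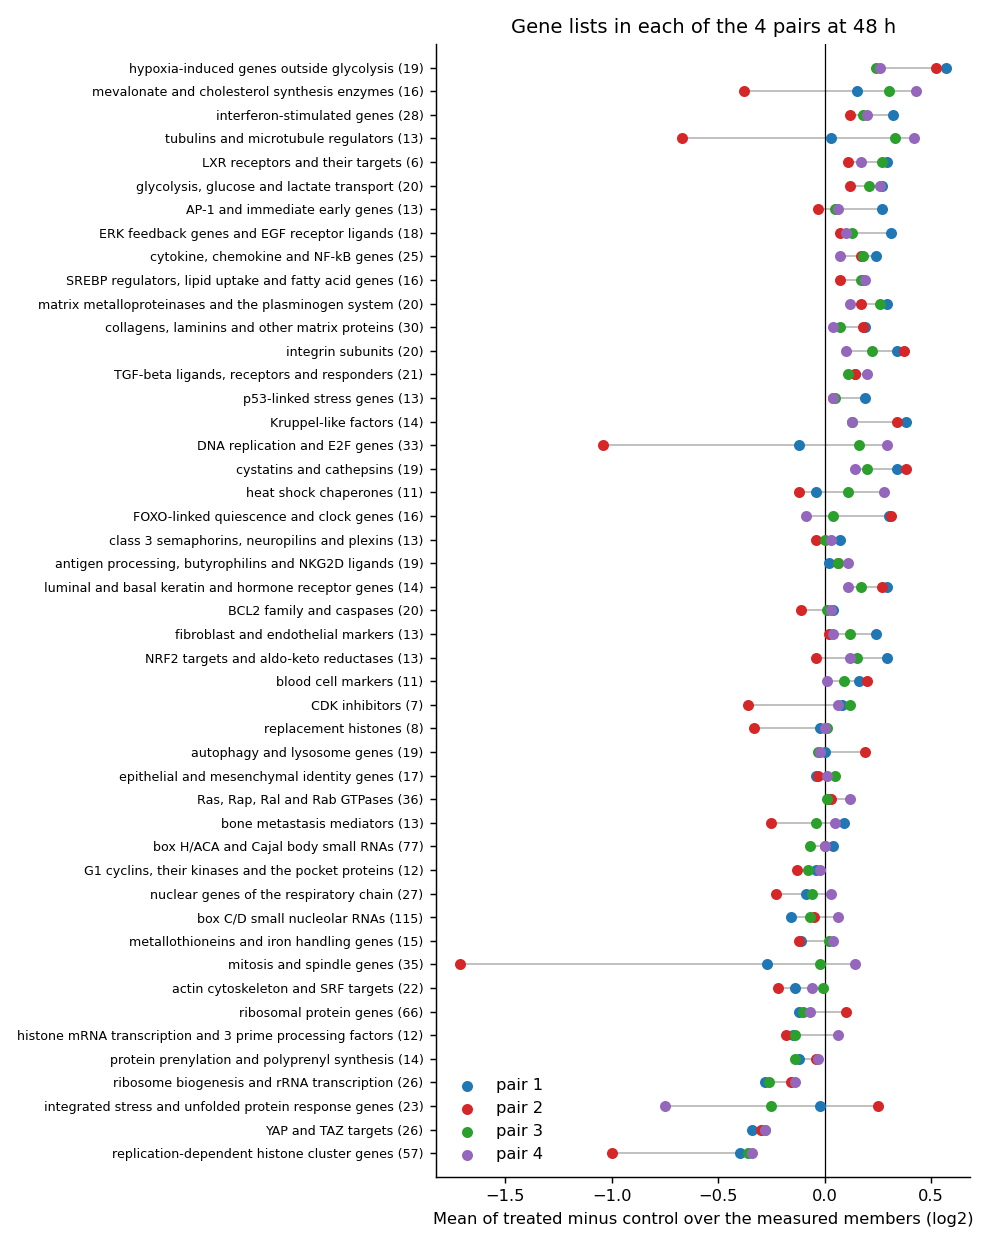
Mean difference of treated minus control (log2) over the measured members of each of 47 gene lists, 1 point per pair, with the number of measured members in brackets; lists are ordered by their median effect without replicate 2. Pair 2 lies far below the other pairs for mitosis (−1.71), DNA replication (−1.04) and tubulins (−0.67), while the 4 pairs of the YAP and TAZ list lie between −0.34 and −0.28.

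Genes that hypoxia induces, largely through the factor HIF-1, were higher. Of 19 such genes outside glycolysis 9 rose (47.4%, background 3.16%) and 0 fell, 7 of them also without replicate 2. Without replicate 1, and likewise without the block, 5 rose, of 204 and 154 rises over all genes. Whichever replicate was left out, 4 were called. Control replicate 1 was low for this list, with a mean signal of 8.38 against 8.7 to 8.8 in the other controls and 8.95 to 9.21 in the treated arrays. Mean differences were 0.57, 0.52, 0.24 and 0.26 in pairs 1 to 4. NDRG1, a stress-induced protein (probe set 8153002), had control values of 8.58, 9.63, 10.23 and 10.42. The treated values were 10.83, 11.81, 11.19 and 11.18, all above the controls, among which replicate 1 was lowest. The effect was 1.54 (SE 0.26), a 2.91-fold higher level (adjusted p = 0.00099), and 1.33 without replicate 2 (0.0069). BHLHE40, a repressor of the clock and a HIF-1 target, had control values of 7.43, 8.05, 8.41 and 8.36 and treated values of 9.03, 9.24, 9.08 and 9.14. It rose by 1.06 (SE 0.21, adjusted p = 0.0029), and by 1.02 without replicate 2 (0.011). BNIP3, of mitophagy, and P4HA2, of collagen hydroxylation, rose by 0.49 and 0.56 (adjusted p = 0.0012 and 0.0025), with similar effects of 0.51 and 0.62 without replicate 2. HIF1A itself had 0.14 (adjusted p = 0.23). VEGFA, the angiogenic growth factor, had 0.41 (adjusted p = 0.13), and passed only without replicate 4 (0.65, adjusted p = 0.014).

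Because members moved together, the promoter of BHLHE40 is shown as the one with most matches among the 4 of risen members examined, the 250 bases before its start (GRCh38.p14, chr3:4979187-4979436, + strand, RefSeq). Capitals mark ACGTG on either strand, the core that HIF-1 binds, also where neighbouring matches overlap in CACGTG.
BHLHE40: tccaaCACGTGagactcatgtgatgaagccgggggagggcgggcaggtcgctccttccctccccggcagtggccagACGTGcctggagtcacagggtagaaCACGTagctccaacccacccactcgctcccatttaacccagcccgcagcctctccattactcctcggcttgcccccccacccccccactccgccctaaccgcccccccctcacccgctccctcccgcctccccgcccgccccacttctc
This window held 4 matches, with each strand counted. That of ALDOC held 3, that of BNIP3 2 and that of P4HA2, which also rose, 0. A CACGTG matches on both strands and was counted on each, in the windows of BHLHE40, ALDOC and BNIP3. Distinct sites there are therefore fewer than matches. ACGTG stood in 58.8% of the promoters of hypoxia and glycolysis genes that rose, in 44.7% of those of members that did not pass and in 18.5% of all promoters. The matches do not show binding.

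In glycolysis and glucose transport 6 of 20 genes rose (30%, background 3.16%) and 0 fell, 5 of them also without replicate 2; 3 rose without replicate 1 and 3 without the block. ALDOC, an aldolase, had control values of 6.95, 7.69, 7.71 and 8.22 and treated values of 7.96, 8.99, 8.55 and 8.57. The groups overlapped, but each treated array was higher than its own control, and the effect was 0.87 (SE 0.14, adjusted p = 0.00072), or 0.73 without replicate 2 (0.0053). ENO2, an enolase, rose by 0.57 (adjusted p = 0.0016), or 0.74 without replicate 2 (0.00016). PFKFB4, which sets the level of an activator of glycolysis, rose by 0.62 (adjusted p = 0.0043), or 0.65 without replicate 2 (0.0088). PFKFB3 had 0.3 (adjusted p = 0.012), and did not pass without replicate 1 (0.066) or the block (0.19). Of 27 nuclear genes of the respiratory chain 1 fell (3.7%, near the background of 4.43%), NDUFA9 (−0.23, adjusted p = 0.02), which did not pass without replicate 1 or 2 (adjusted p = 0.058 and 0.11).

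CST1, a secreted inhibitor of cysteine proteases (cystatin SN, probe set 8065412), had control values of 8.22, 9.57, 10.44 and 10.79. Its treated values were 10.71, 11.8, 11.93 and 11.67. Control replicate 4 lay above treated replicate 1, yet each treated array exceeded its own control, by 2.49, 2.23, 1.49 and 0.88. The effect was 1.77 (SE 0.29), a 3.41-fold higher level (adjusted p = 0.00065), and 1.62 without replicate 2 (0.004); without the block its adjusted p was 0.18. CST2, its near copy on chromosome 20, rose by 1.18 (adjusted p = 0.0018), or 1.01 without replicate 2 (0.012), with 0.14 without the block. CST4 had 0.83 (adjusted p = 0.0071), and 0.56 without replicate 2 (0.063). These 3 genes are near-identical, so probe sets may share signal. Of 19 cystatins and cathepsins 6 rose (31.6%, background 3.16%) and 0 fell, 4 of them in both fits; 3 rose without replicate 1 and none without the block.

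ITGA10, the collagen-binding integrin alpha 10 (probe set 7904761), had control values of 5.83, 6.33, 6.62 and 7.22. The treated values were 7.98, 8.46, 7.8 and 7.84, all above the controls. The effect was 1.52 (SE 0.2), a 2.87-fold higher level (adjusted p = 8.8e-05), and 1.32 without replicate 2 (0.00097). ITGB3, a subunit of the vitronectin receptor, rose by 0.81 (adjusted p = 0.00055), and by 0.62 without replicate 2 (0.0039). ITGB4, a laminin receptor, and ITGA2, a collagen receptor, had 0.9 and 0.59 (adjusted p = 0.0088 and 0.013), and neither passed without replicate 1 (0.1 and 0.14). Of 20 integrin subunits 6 rose (30%, background 3.16%) and 0 fell, 4 of them in both fits. Without replicate 1, 2 rose, and these 2 were called whichever replicate was left out. Without the block 3 rose. Over all genes 204 rose without replicate 1 and 154 without the block.

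AGR2, a disulfide isomerase of secretory luminal cells, had control values of 4.9, 5.47, 5.77 and 6.03 and treated values of 6.48, 8.54, 6.65 and 6.64. The groups did not overlap, and treated replicate 2 was far above the rest. The effect was 1.53 (SE 0.28, adjusted p = 0.0018), and 1.02 without replicate 2 (adjusted p = 0.013). Keratins KRT8 and KRT19 of the same list had 0.35 and 0.5 (adjusted p = 0.012 and 0.047), and 0.51 and 0.65 without replicate 2; neither passed without replicate 1, 3 or 4 (adjusted p between 0.054 and 0.22). The mean of the 14 luminal and basal genes was 7.43 to 7.56 in control and 7.65 to 7.75 in treated arrays. Of these genes 3 rose (21.4%, background 3.16%), of which 1 was called without replicate 1, 3 or 4. GALNT5, which starts mucin-type glycans, rose by 1.2 (SE 0.18, adjusted p = 0.00039), and by 0.99 without replicate 2. KLRC3, a receptor gene of natural killer cells, was dim: control values were 3.43, 4.37, 4.27 and 4.5 and treated values 4.69, 6.37, 4.98 and 4.63, with an effect of 1.03, or 0.7 without replicate 2 (adjusted p = 0.0025 and 0.021). LTBP1, which holds latent TGF-beta, and ATP8A1, a lipid flippase, lost their calls without replicate 2: 0.76 became 0.42 (adjusted p = 0.02 and 0.17) and 0.68 became 0.31 (0.018 and 0.16). Neither passed without replicate 1 (0.17 and 0.073).

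SLC5A3, which imports the osmolyte myo-inositol (probe set 8068361), rose as well. Its control values were 9.07, 8.97, 8.47 and 8.83 and its treated values 10.41, 9.59, 9.63 and 10.29. All treated arrays were higher, and the effect was 1.14 (SE 0.12, adjusted p = 5.1e-06), or 1.32 without replicate 2 (7.9e-07). STC1, the secreted hormone stanniocalcin, had control values of 7.67, 8.1, 7.83 and 8.3 and treated values of 9.09, 8.19, 9.46 and 9.49. Treated replicate 2 lay within the control range; the effect was 1.08 (adjusted p = 0.0029), and 1.42 without it (0.00032).

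Of 20 matrix proteases and genes of the plasminogen system 5 rose (25%, background 3.16%) and 0 fell, and the 5 also rose without replicate 2, but 1 without the block. MMP1, interstitial collagenase, had control values of 8.44, 8.42, 8.43 and 8.69 and treated values of 9.02, 9.3, 9.37 and 9.38. The effect was 0.77 (SE 0.079, adjusted p = 5.1e-06), and 0.74 without replicate 2 (8.7e-05), but its adjusted p without the block was 0.34. PLAT, the tissue plasminogen activator, rose by 0.96 (adjusted p = 0.00067), or 1.17 without replicate 2. TIMP1, an inhibitor of these proteases, and MMP14, which is bound to the membrane, rose by 0.58 and 0.51 (adjusted p = 0.00082 and 0.0032), with 0.082 and 0.052 without the block. Among 30 matrix proteins 7 rose (23.3%, background 3.16%) and 3 fell (10%, background 4.43%); without the block 4 rose and 1 fell. Fibronectin (FN1), COL6A1 and LAMB2 rose by 0.66, 0.59 and 0.51 (adjusted p = 0.00077, 0.0014 and 0.0018). COL12A1 fell by 0.46 (adjusted p = 0.0042). All 4 kept their calls without replicate 2.

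TGFB1, the main TGF-beta ligand, had control values of 8.64, 8.87, 8.78 and 8.78 and treated values of 9.36, 9.26, 9.47 and 9.6. It rose by 0.66 (SE 0.082, adjusted p = 5.8e-05), and by 0.75 without replicate 2. Its receptor TGFBR1 rose by 0.42 (adjusted p = 0.0018), with 0.064 without the block. In the TGF-beta list 4 of 21 genes rose (19%, background 3.16%) and 0 fell, 3 of them in both fits. Without replicate 1 the list had 2 rises and without the block 1, against 204 and 154 over all genes. SEMA3E, a secreted guidance signal that binds plexin D1 (probe set 8140650), had control values of 6.72, 6.73, 7.03 and 6.83. Its treated values were 5.41, 5.76, 5.77 and 5.87, all lower. The effect was −1.13 (SE 0.11), a 2.19-fold lower level (adjusted p = 3.9e-06), and −1.18 without replicate 2 (2.3e-05). Of 13 class 3 semaphorins, neuropilins and plexins, 1 fell (7.69%, background 4.43%) and 3 rose (23.1%, background 3.16%). The 3 were PLXNA1, PLXNA2 and PLXND1, at 0.31, 0.48 and 0.19, and none passed without replicate 1 (adjusted p = 0.16, 0.24 and 0.073) or without the block (0.39, 0.5 and 0.36). PLXNA2 and PLXND1 did not pass without replicate 3 (0.17 and 0.094) or 4 (0.091 and 0.12) either, nor PLXND1 without replicate 2 (0.1).

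**Figure D4:**
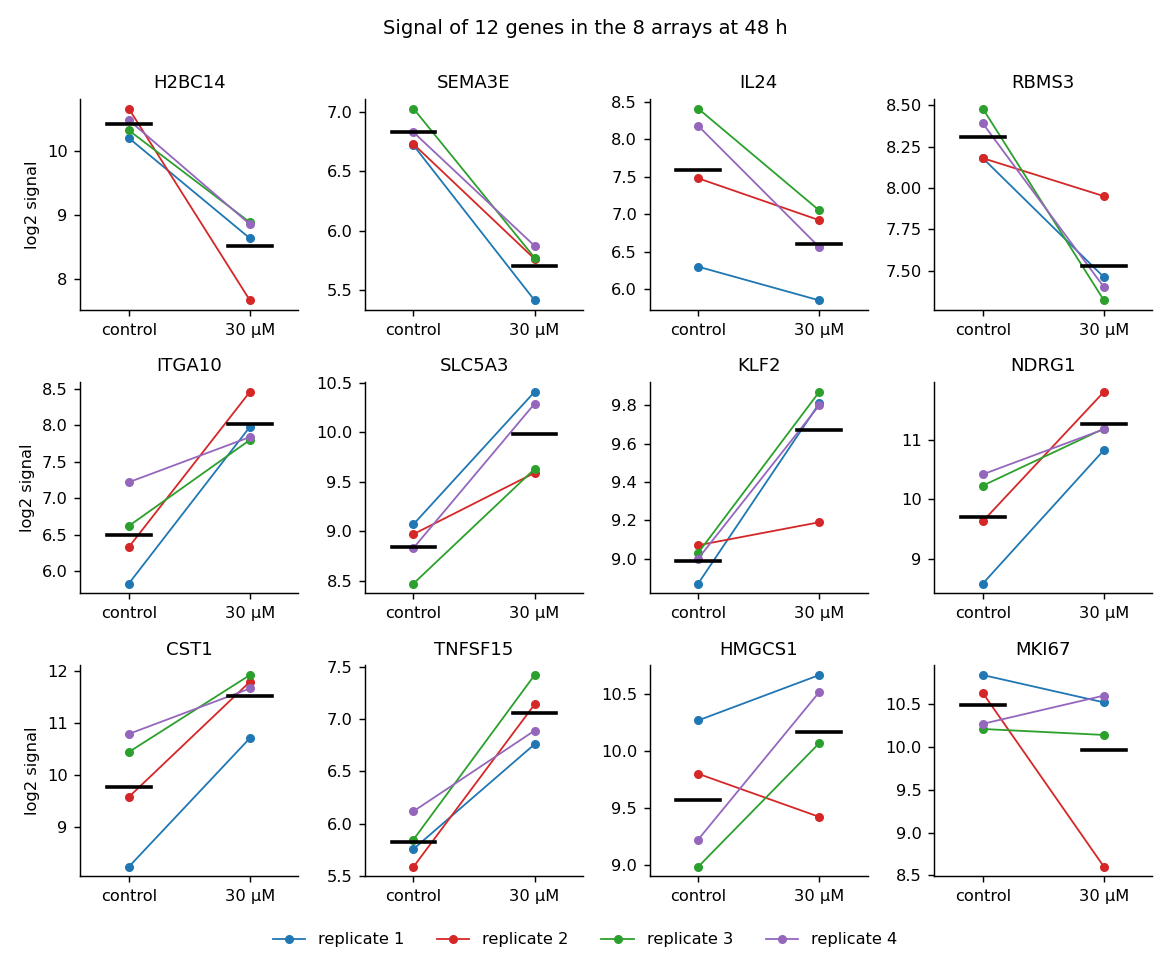
Log2 signal of 12 genes in the 8 arrays, with a line joining the control and treated array of each replicate and a black bar for the mean of each group (n = 4). SEMA3E and H2BC14 are lower and ITGA10 and TNFSF15 higher in every treated array than in any control array; HMGCS1 is lower in the treated array only in replicate 2, and the drop of MKI67 to 8.6 is in treated replicate 2.

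Cytokine and NF-kB genes were on average higher in each pair, with mean differences of 0.24, 0.17, 0.18 and 0.07 in pairs 1 to 4. Of 25 measured 7 rose (28%, background 3.16%) and 1 fell (4%, background 4.43%), 6 rises and the fall in both fits; 4 rose without replicate 1 and 3 without the block. CSF1, which macrophages and osteoclast precursors need, had control values of 8.19, 8.56, 8.96 and 9.02 and treated values of 9.11, 10.04, 9.7 and 9.65. It rose by 0.94 (SE 0.15, adjusted p = 0.00072), or 0.77 without replicate 2 (0.0056). NFKBIA, the inhibitor that NF-kB induces, rose by 0.44 (adjusted p = 0.0014) with all pairs and by 0.47 without replicate 2. TNFSF15, a TNF family ligand (probe set 8163618), had control values of 5.76, 5.59, 5.85 and 6.12 and treated values of 6.76, 7.14, 7.42 and 6.89. The effect was 1.22 (SE 0.18, adjusted p = 0.00039), and 1.11 without replicate 2 (0.0023). IL6 stayed dim, at 4.5 and 4.66, with an effect of 0.15 (adjusted p = 0.48).

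IL24, a cytokine of the IL-10 family (probe set 7909271), fell. Its control values were 6.3, 7.48, 8.41 and 8.18 and its treated values 5.85, 6.92, 7.05 and 6.56. Groups overlapped because control replicate 1 was low, but every pair was lower when treated. The effect was −1 (SE 0.15, adjusted p = 0.00039), and −1.14 without replicate 2 (0.00028). TNFSF18, the ligand of the co-stimulatory receptor GITR, had a like spread, with control values of 5.95, 7.89, 8.68 and 8.46 and treated values of 5.62, 7.73, 7.32 and 5.83. Its effect of −1.12 (adjusted p = 0.015) was −1.44 without replicate 2 (0.0045), but −1.04 without replicate 3 (0.069), −0.62 without replicate 4 (0.13), and it did not pass without the block (0.14).

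Of 28 interferon-stimulated genes 7 rose (25%, background 3.16%) and 0 fell, 5 of them in both fits. Without replicate 1, 2 rose, and without the block 1, of 204 and 154 rises over all genes. IRF1, a transcription factor, had control values of 7.37, 7.21, 7.11 and 7.32 and treated values of 7.79, 7.66, 7.68 and 7.79, with an effect of 0.48 (SE 0.078, adjusted p = 0.00072) and 0.49 without replicate 2 (adjusted p = 0.002); its adjusted p was 0.1 without the block. IFITM1, a membrane protein that restricts viruses, rose by 0.42 (adjusted p = 0.0015), or 0.39 without replicate 2 (0.0068). IFIT3 and OAS2 had 0.28 and 0.36 (adjusted p = 0.0079 and 0.013), and did not pass without replicate 1 (0.093 and 0.16) or without the block (0.69 and 0.32). CD274, which encodes the checkpoint ligand PD-L1, fell. Its control values were 7.82, 8.06, 7.83 and 7.75, and its treated values 7.1, 6.83, 7.21 and 7.19, with an effect of −0.78 (SE 0.13, adjusted p = 0.001) and −0.63 without replicate 2 (0.0075). TAPBP, of peptide loading, rose by 0.44 (adjusted p = 0.001; 0.12 without the block), or 0.34 without replicate 2 (0.0064). BTN3A1, through which human gamma delta T cells sense the pathway's phosphorylated intermediates, had 0.23 (adjusted p = 0.21); it passed only without replicate 3 (0.39, adjusted p = 0.035).

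MYC, a driver of growth, had control values of 10.54, 10.85, 11.02 and 10.98 and treated values of 9.99, 10.39, 10.41 and 10.26. It fell by 0.59 (SE 0.1, adjusted p = 0.0012), and by 0.63 without replicate 2 (0.0021). Of 13 AP-1 and immediate early genes 3 rose (23.1%, background 3.16%) and 3 fell (23.1%, background 4.43%), or 3 and 1 without the block, with IER3 at 0.67, JUNB at 0.44 and DUSP1 at −0.38 (adjusted p = 0.0017, 0.0022 and 0.0029; DUSP1 0.054 without the block). Without replicate 2 the 3 had 0.74, 0.34 and −0.27, and passed. Of 18 ERK feedback genes and EGF receptor ligands 7 rose (38.9%, background 3.16%) and 0 fell, 4 of them in both fits. None rose without replicate 1, and none without the block, where 204 and 154 rose over all genes. DUSP5, SPRY4 and SPRY1, which dampen ERK signalling, had 0.44, 0.5 and 0.32, and none of the 3 passed without replicate 1 (adjusted p = 0.062, 0.055 and 0.078). TSC22D3, a glucocorticoid- and FOXO-induced gene, rose by 0.8 (SE 0.14, adjusted p = 0.0013), or 0.78 without replicate 2. AKR1C3 and AKR1C1, steroid-metabolising reductases, had 0.87 and 0.88 (adjusted p = 0.0031 and 0.011), and did not pass without replicate 1 (0.67 with 0.052, and 0.62 with 0.14); a second probe set of AKR1C1 had 0.43 (adjusted p = 0.33).

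Genes of the integrated stress and unfolded protein response varied between replicates. Of 23 measured, 5 fell (21.7%, background 4.43%) and 0 rose with all pairs, and 11 fell and 1 rose without replicate 2 (background 5.28% and 3.72%). Without replicate 1, 3 fell, and without the block 1, of 281 and 195 falls over all genes. Mean differences were −0.02, 0.25, −0.25 and −0.75 in pairs 1 to 4. The list's mean signal was 9.18 in control replicate 1, and 9.96 to 10.18 in the other controls. PPP1R15A, which restores translation after stress, had control values of 8.92, 9.58, 10.28 and 9.99 and treated values of 8.6, 9.56, 9.06 and 8.34, with an effect of −0.8 (SE 0.16, adjusted p = 0.0028) and −1.06 without replicate 2 (0.00018). DDIT3, the factor CHOP, was 6.7 in control replicate 1 and 8.39 to 8.71 in the other controls, and 6.93, 8.5, 7.94 and 6.77 when treated. Its effect of −0.57 did not pass (adjusted p = 0.068), but −0.81 without replicate 2 did (0.015), as did −0.84 without replicate 1 (0.024). SLC7A11, SLC3A2 and MTHFD2, of amino acid transport and one-carbon metabolism, fell by 0.37, 0.39 and 0.52. None of these 3 passed without replicate 4 (adjusted p = 0.12, 0.15 and 0.17) or without the block (0.35, 0.18 and 0.16), and SLC3A2 and MTHFD2 not without replicate 1 (0.061 and 0.062). Without replicate 4 the whole list had 1 fall and 1 rise, and a median effect of 0.

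Among 26 genes of ribosome biogenesis and rRNA transcription 9 fell (34.6%, background 4.43%) and 0 rose. Without replicate 2, 9 fell as well (background 5.28%), 6 of them in both. The falls were 1 without replicate 1, 3 without replicate 3 and 12 without replicate 4, against 281, 490 and 1039 over all genes. Mean differences were −0.28, −0.16, −0.26 and −0.14. DKC1, the pseudouridine synthase dyskerin, had control values of 10.03, 9.92, 9.97 and 9.97 and treated values of 9.66, 9.54, 9.58 and 9.67, with an effect of −0.36 (SE 0.073, adjusted p = 0.0036) and −0.35 without replicate 2. BOP1 and RRP9, of ribosomal subunit assembly, had −0.32 and −0.31, and did not pass without replicate 1 (adjusted p = 0.075 and 0.15), nor BOP1 without replicate 2 (0.091). Only 1 of the 9 falls was called without the block. Of 66 ribosomal protein genes 3 fell with all pairs (4.55%, near the background of 4.43%), and 9 without replicate 2 (background 5.28%). Pair 2 went the other way: mean differences were −0.12, 0.1, −0.1 and −0.07 in pairs 1 to 4. In these pairs 10, 52, 11 and 15 of the 66 genes were higher when treated. The 3 falls were the paralogs RPL22L1, RPL26L1 and RPL7L1 (−0.52, −0.26 and −0.17). None of them passed without replicate 1 (adjusted p = 0.086, 0.078 and 0.22) or replicate 3 (0.084, 0.058 and 0.13). Of 115 box C/D small nucleolar RNAs 2 fell (1.74%), and of 77 box H/ACA and Cajal body RNAs 2 fell and 1 rose, below or near the background of 4.43% and 3.16%.

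The remaining lists held few calls, against a background of 3.16% for rises and 4.43% for falls. A single call in a list this short is no result about the list. Apoptosis genes of the BCL2 and caspase families had 1 fall in 20 (5%). It was BCL2 itself (−0.31, adjusted p = 0.045), which did not pass without replicate 2 (adjusted p = 0.26), replicate 1 (0.067) or replicate 3 (0.096). No call was made among 19 autophagy and lysosome genes or 12 G1 cyclins, kinases and pocket proteins (limma, all pairs), against a background of 7.59%, with 2 and 4 at an unadjusted p under 0.05; without replicate 2 there were 1 fall in the first list and 1 rise and 2 falls in the second. Of 13 p53-linked genes 1 fell (7.69%), GADD45A (−0.4, adjusted p = 0.0036). It had −0.35 without replicate 2 (0.018), and 0.052 as adjusted p without the block. Of 11 heat shock genes 1 rose (9.09%), BAG3, by 0.45 (adjusted p = 0.00082), or 0.51 without replicate 2 (0.00064). Of 17 epithelial and mesenchymal identity genes 1 fell (5.88%), SNAI2 (−0.39, adjusted p = 0.021), which did not pass without replicate 1 or 2 (0.16 and 0.075). Of 13 bone metastasis genes 1 rose (7.69%), the Notch ligand JAG1 (0.41, adjusted p = 0.015). It did not pass without replicate 1 (0.2), replicate 3 (0.065) or the block (0.19). Of 7 CDK inhibitors and related genes the 1 fall (14.3%) was CDKN3, given above. Of 6 LXR targets 1 rose (16.7%), NR1H3, which encodes LXR-alpha (0.33, adjusted p = 0.0088). It did not pass without replicate 1 (0.078) or the block (0.063). Among 16 FOXO and clock genes TSC22D3 rose (6.25%) and NR1D2, a clock repressor, fell (6.25%). NR1D2 had −0.37 with and without replicate 2 (adjusted p = 0.0024 and 0.0061). Among 13 NRF2 and reductase genes AKR1C1 and AKR1C3 rose (15.4%) and SLC7A11 fell (7.69%). In 15 metal and iron genes 1 fell (6.67%), MT1E (−0.23, adjusted p = 0.03). It did not pass without replicate 1, 3 or 4 (0.16, 0.12 and 0.053). TFRC, the transferrin receptor, had 0.03 with all pairs (adjusted p = 0.96) and 0.47 without replicate 2 (0.017). It had −0.19 without replicate 3 and −0.24 without replicate 4.

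The design also asks how the 48 h response relates to a shorter and to a stronger exposure. At the same dose for 24 h, in lot I, limma called 0 genes of 18417 after adjustment (0%), with 866 at an unadjusted p under 0.05, and H2BC14 had an effect of −0.36, ITGA10 0.22 and SEMA3E −0.02. Tested as a difference of effects, 22 genes were higher and 53 lower at 48 h than at 24 h (75, 0.407%), 18 and 51 of them also without replicate 2. Time and lot cannot be told apart in this difference. The largest differences called in both fits were those of ITGA10 (1.3, SE 0.28), TNFSF15 (1.22), SLC5A3 (0.93) and MMP1 (0.75) upward, and of H2BC14 (−1.55, SE 0.24), H2AC15 (−1.18), IL24 (−1.14) and SEMA3E (−1.1) downward. MMP1, H2BC14 and SEMA3E passed with each replicate left out. ITGA10, TNFSF15 and SLC5A3 did not pass without replicate 1 (adjusted p = 0.14, 0.064 and 0.058) or replicate 3 (0.071, 0.1 and 0.063), H2AC15 not without replicate 1 (0.056) and IL24 not without replicate 3 (0.076). Over all genes 8 passed when replicate 1 was left out, 11 when it was replicate 3, 168 when it was replicate 4 and 388 (2.11%) when it was replicate 2. Without the block it was 0, with 1597 genes at an unadjusted p under 0.05 (limma). With median centring, 24 were higher and 103 lower, 18.9% instead of 29.3% higher.

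At 100 µM for 24 h, in the same lot, 2826 genes rose (15.3%) and 3062 fell (16.6%). Of the 582 genes that rose at 48 h, 492 (84.5%) rose there too, and 1 fell; these are 17.4% of the rises at 100 µM. Of the 815 that fell at 48 h, 665 (81.6%) fell there and 3 rose, which is 21.7% of the falls at 100 µM. The shares were 90.1% and 82.8% for genes called both with and without replicate 2. Among genes called only with replicate 2 included they were 74% and 79.4%, and among those called only without it 43.6% and 37.7%. The comparisons share no array. Histone cluster genes had a median of −0.52 at 48 h, or −0.34 without replicate 2, and −0.47 at 100 µM (34, 25 and 39 of 57 fell). YAP and TAZ targets had −0.28, −0.31 and −0.70 in that order (8, 10 and 19 of 26 fell), and hypoxia genes 0.36, 0.3 and 1.16 (9, 7 and 17 of 19 rose). DNA replication genes had −0.16 at 48 h, 0.11 without replicate 2 and −0.58 at 100 µM (2, 1 and 26 of 33 fell). These differences between list medians were not tested. Of 115 box C/D RNAs 57 fell at 100 µM and 2 at 48 h.

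Tested as a difference of effects, 795 genes had a higher and 720 a lower value at 30 µM for 48 h than at 100 µM for 24 h (1515, 8.23%), 724 and 640 of them in both fits. Dose and time both differ here. Those named as higher at 48 h, the 4 largest in that direction called in both fits, were 3 YAP and TAZ targets and DKK1, an inhibitor of Wnt signalling made by bone-tropic tumour cells. CCN1 had −0.59 at 48 h and −3.6 at 100 µM, a difference of 3.01 (SE 0.34, adjusted p = 1.6e-05). DKK1 had −0.63 (adjusted p = 0.067) and −3.21, CCN2 −0.51 and −2.82, and ANKRD1 −0.41 and −2.7. In the other direction, ITGB4 had 0.9 and 2.58, DDIT4 (an inhibitor of mTORC1) 0.36 and 2.07, and TCP11L2 0.7 and 3.22. These differences passed with each replicate left out. TCP11L2 varied widely at 48 h, with pair differences of 1.5, 2.55, −0.03 and −1.21, and 0.09 without replicate 2. MMP1 had a higher effect at 48 h than at 100 µM (0.77 and 0.22, difference 0.55, adjusted p = 0.0037). For SEMA3E (−1.13 and −1.1) and SLC5A3 (1.14 and 1.07) the differences of −0.03 (SE 0.16) and 0.08 (SE 0.16) did not pass (adjusted p = 0.95 and 0.86). Over all genes 922 passed when replicate 3 was left out, 844 when it was replicate 4, 2700 (14.7%) when it was replicate 2, and 514 with no block.

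**Figure D5:**
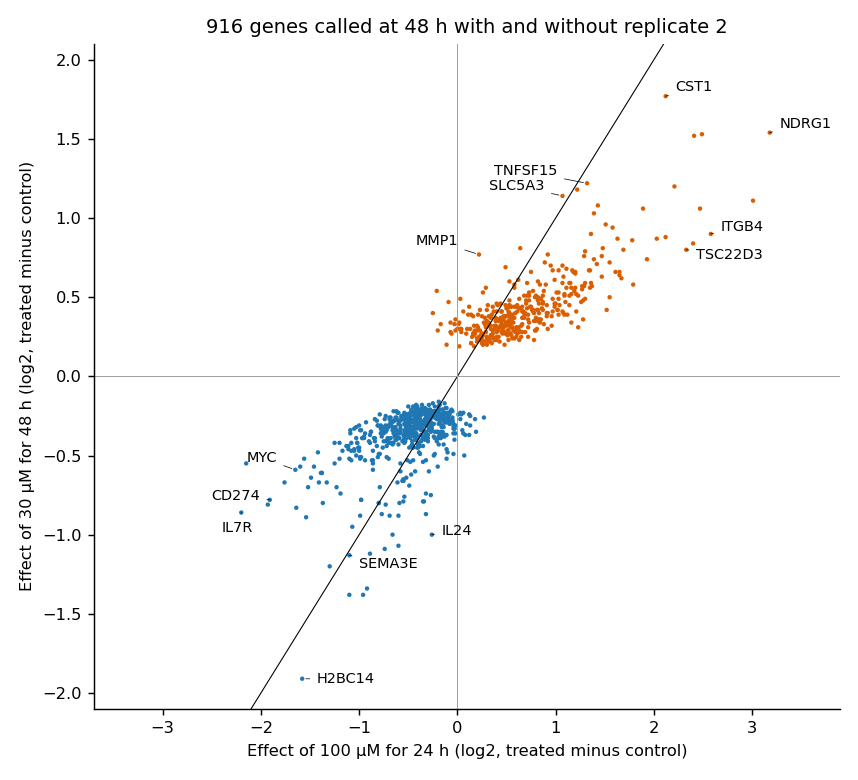
Effect of 30 µM for 48 h (vertical) against 100 µM for 24 h (horizontal), both log2 treated minus control, for the 916 genes called at 48 h with and without replicate 2; orange points rose and blue points fell at 48 h, and the line marks equal effects. On the vertical and horizontal axis NDRG1 lies at 1.54 and 3.18, while H2BC14 lies at −1.91 and −1.58.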

How the data were processed

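The authors deposited log2 signals of Affymetrix gene arrays, 1 per probe set, made by RMA; the submitters' processing notes name Affymetrix Power Tools 1.10.2, RMA and limma. The genome build is not given in the sources used here, nor is whether both lots were normalized together. All 40 columns matched their samples. Of 33297 probe sets, 19460 had 1 gene symbol; the brightest per gene gave 18417 genes, and 769 genes had more than 1 probe set.

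limma 3.58.1 in R 4.3.3 was fitted to all 40 arrays with 1 block per lot, time and replicate number and 6 treated effects (18 residual degrees of freedom, 17 without replicate 2). p-values were two-sided, adjusted by Benjamini-Hochberg and called under 0.05. The steps were tested on simulated data. The pairing comes from the series' design text, which pairs by day of measurement; deviations of same-numbered arrays correlated at 0.55, −0.19, 0.31 and −0.30 in pairs 1 to 4. Replicates are labelled independent, without naming separate cultures, so p-values measure the spread between these samples, shared over all 40 arrays. The 48 h pairs spread more, with a median SD of 0.192 against 0.134 to 0.161 in the other comparisons. SEs and p-values therefore understate the spread of genes whose 48 h pairs varied most. MKI67, for example, had an SE of 0.2 with pair differences of −0.31, −2.03, −0.07 and 0.33. Precision is limited by the number of arrays.

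Named were the 10 largest rises and falls called in both fits in 4 of 4 pairs, up to 4 called genes per list by smallest p, the 4 largest differences each way per contrast, the 4 genes each way that moved most without replicate 2, and a list of 38 genes, 2 of them not measured. Hormone receptor and tissue markers were named after their values were seen. Members and the 48 lists (1122 of 1185 entries measured) were chosen with earlier results of these data known. Alternatives changed the block, arrays, normalization, dim-gene filter, probe sets and variance model. Promoters are from RefSeq (GRCh38.p14), and motifs were searched on both strands of 250 bases. 1 of the lists, with its members, is not reported here.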

Additional observations from a re-analysis of the deposited data

Results flagged for a closer look

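Within each group of 4 arrays, a gene's highest or lowest array was noted where its gap to the nearest other array exceeded Dixon's critical share of the group's range. Chance gives about 1 in 20 groups. Of 304 groups of named genes 26 were noted, 9 of them at treated replicate 2 and 7 at control replicate 1. Some genes, among them AGR2 and ATP8A1, were named because they moved most without replicate 2. The count at that array is therefore in part built in, and is no test against chance.

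Treated replicate 2 was high for AGR2 (8.54, others 6.48 to 6.65), ATP8A1 (8.02), JUNB (9.32), KLF13 (8.01) and LAMB2 (10.09). It was low for HMMR (5.69), PLK1 (8.36), KLF2 (9.19) and RHEB (10.02). All 3 list means noted, of 94, were also of this array: CDK inhibitors at 7.37 (others 7.82 to 7.91), p53-linked genes at 7.55 (7.6 to 7.61) and autophagy and lysosome genes at 8.6 (8.4 to 8.43).

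Control replicate 1 was low for DDIT4 (7.45, others 9.9 to 10.03), DDIT3 (6.7), TSC22D3 (6.97), GADD45A (8.35), COL6A1 (8.06), CST3 (10.18) and PLXNA1 (8.56). Control replicate 4 was high for AKR1C1 (6.89) and MMP1 (8.69), and control replicate 3 low for IFITM1 (7.95), NDUFA9 (9.1) and SNORD53 (6.4). Treated replicate 3 was low for COL12A1 (7.5), PFKFB3 (8.33) and RPL26L1 (9.71) and high for CST3 (10.9), and treated replicate 1 was low for PLXNA1 (9.06).

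Effects that differed between exposures numbered 75 genes for 48 h against 24 h at 30 µM and 1515 for 30 µM at 48 h against 100 µM at 24 h (limma contrast, adjusted p under 0.05). Those named for the first were ITGA10 (1.3), TNFSF15 (1.22), SLC5A3 (0.93), MMP1 (0.75), H2BC14 (−1.55), H2AC15 (−1.18), IL24 (−1.14) and SEMA3E (−1.1). Those named for the second were CCN1 (3.01), DKK1 (2.58), CCN2 (2.32), ANKRD1 (2.29), TCP11L2 (−2.52), DDIT4 (−1.71) and ITGB4 (−1.67).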

How the results depend on the processing

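The count of genes changed at 48 h, 1397, was 349 with no replicate block, 315 with neither the block nor pair 2, 455 with only the treated array of replicate 2 left out and no block, 370 with the arrays of lot II alone and 0 with the 8 arrays alone (limma; 2280 at an unadjusted p under 0.05). Leaving out 1 replicate gave 485 to 1672. A random block, new quantile normalization, median centring, removal of the dimmest genes, the mean of probe sets, all probe sets, an intensity trend and array weights kept it within 1.5 times. The count without replicate 2, 1657, was 315 with no block, 725 with lot II alone, 139 with the 6 arrays left, and 583 to 1090 with a further replicate left out; apart from the setting with no block, these were chosen after seeing the data.

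The 75 differences between 48 h and 24 h became 0 with no block, with or without pair 2 or its treated array (limma; 1597, 1833 and 2024 at an unadjusted p under 0.05), 127 with median centring, 259 without the dimmest genes, 214 with an intensity trend, 651 with array weights and 8 to 388 with a replicate left out. The 1515 differences from 100 µM became 514 with no block, 864 and 994 with no block and pair 2 or its treated array left out, 516 with lot II alone, 2918 with array weights and 844 to 2700 with a replicate left out.

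Among named genes the sign turned for values that did not pass. With a replicate left out, FDPS ranged from 0 (replicate 4) to 0.32, GGPS1 from −0.21 (replicate 2) to 0.31, CDC20 from −0.84 to 0.04 (replicate 2), SLBP from −0.1 to 0.09 and TFRC from −0.24 to 0.47. GGPS1 was −0.21 also with neither the block nor pair 2, −0.1 without its treated array and −0.09 with array weights; CDC20 was 0.04 and 0.02 in the first 2 of these. SLBP was −0.02 without replicate 3 and −0.01 with median centring, and TFRC −0.19 without replicate 3. Of 136 named genes that passed, 68 kept their call with no block, 116 without replicate 2, 82 without replicate 1 and 0 with the 8 arrays alone. Under any setting 0 turned sign. With no block, the 8 arrays alone, lot II alone or an intensity trend only the SE changes, so no sign could turn. The genes were also chosen for passing on these arrays. The cause of the changes in calls and signs was not tested. Fewer arrays also leave fewer degrees of freedom.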

Other observations

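Probe sets without a gene name were fitted together with all 33297. Of the 12083 not listed in the annotation, 35 rose and 86 fell at 48 h (1%), 72 of them also without replicate 2. Of the 1754 with several symbols 37 rose and 39 fell (4.33%), 36 of them also without replicate 2.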
